A study of Mus musculus with 16 samples.

Results

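Cytochrome P450 enzymes of the Cyp2c and Cyp3a subfamilies were followed in mouse liver across diet, treatment with a PPARα agonist and body weight class. Together with P450 oxidoreductase (Por), which hands electrons to all of them, 10 genes were listed. A gene was taken if the platform annotation assigned at least 1 transcript cluster, the set of probes summarised into 1 value, to that gene alone, and the cluster with the highest mean was used. This held for 9 of the 10 genes, namely Cyp2c29, Cyp2c37, Cyp2c50, Cyp2c54, Cyp2c55, Cyp2c70, Cyp3a11, Cyp3a13 and Cyp3a25, out of 18820 genes with a cluster of their own. No cluster was assigned to Por alone, so Por has no value here. Each of the 9 had 1 such cluster and lay above the filter on low values (log2 intensity of 4.32) on all 16 arrays. For Cyp3a11, 2 more clusters and for Cyp3a25 1 more were shared with related Cyp3a genes and were not used.

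The 16 arrays came from the whole liver of 16 male C57BL/6J mice, 1 mouse per array, killed at 12 months of age after receiving their diet since 9 weeks of age. The control group (C) ate AIN-93W, the CR group was put on a planned restriction of 30%, the MF group had 25% of its energy as fat, and the INT group switched every week between MF ad libitum and 40% restriction and was killed in an MF week. All mice, controls included, fasted for 4 h, were gavaged with carboxymethyl cellulose alone (mock) or with 160 mg/kg of the PPARα agonist Wy-14643 in it (Wy), and were killed after a further 6 h without food. Each of the 8 combinations of diet and treatment held 2 mice, 1 of high and 1 of low body weight, and as treatments were given to mice of like body weight within a diet, the mock and the Wy mouse of 1 diet and weight class were taken as a pair, 8 in all. A mouse is named by its weight class first, then its diet and its treatment, as in high C mock. Array medians over the 14275 tested genes ran from 7.07 to 7.21 log2, and 14 arrays shared 1 array code in the labels while the high INT mock and high INT Wy arrays carried another. Of 10 hepatocyte markers 9 were measured and none of these was under the filter on all arrays, while Cdx2, an intestinal marker, and Adipoq, an adipocyte marker, were. Most markers of both lists were not, as 4 of 6 measured intestinal and 3 of 5 measured adipocyte markers passed the filter on at least 5 arrays. In whole liver, fewer cells of a type and less RNA per cell cannot be told apart.

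Cytochrome P450 enzymes sit in the endoplasmic reticulum, carry a haem group and insert oxygen into drugs, steroids, fatty acids and bile acids, with electrons that arrive from NADPH through Por. Cyp2c and Cyp3a genes are expressed most in hepatocytes around the central vein and are classical targets of the nuclear receptors CAR (Nr1i3) and PXR (Nr1i2), which sense foreign compounds and bile acids. Wy activates another nuclear receptor, PPARα (Ppara), best known for switching on fatty acid oxidation, and fasting activates the same receptor.

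Promoters of the listed genes were described from their letters alone. RefSeq windows of 250 bases before the start site (GRCm38.p6) were used for 8 of the 9 measured genes and for Por, with Cyp2c54 not analysed here. Those of Cyp2c37 and Cyp2c50 were 87.8% identical (215 of 245 aligned bases), against at most 72.4% for any other pair. Whether the likeness of promoters bears on the levels of these genes was not tested. The bases next to the start are shown 5′ to 3′, at chr19:39992304-39992423 (plus strand) for Cyp2c37 and chr19:40089561-40089678 (plus strand) for Cyp2c50, with bases that differ or have no partner in capitals.
Cyp2c37: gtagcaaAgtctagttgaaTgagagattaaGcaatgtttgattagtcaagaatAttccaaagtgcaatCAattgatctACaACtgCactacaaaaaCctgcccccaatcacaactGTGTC
Cyp2c50: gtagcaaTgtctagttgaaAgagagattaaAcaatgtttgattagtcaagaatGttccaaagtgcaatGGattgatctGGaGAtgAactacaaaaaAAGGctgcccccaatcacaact
In these stretches 12 bases differed and 8 had no partner.

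Of 7 motifs searched on both strands, CAAAGTCCA, a sequence bound by the hepatocyte factor HNF4A, was found in Cyp2c70 and Cyp3a11, 2 of the 9 windows, against 0.384% of 32817 windows of that length. The windows are shown for that reason, in capitals for the motif, at chr19:40187287-40187406 (minus strand) for Cyp2c70 and chr5:145879855-145879974 (minus strand) for Cyp3a11.
Cyp2c70: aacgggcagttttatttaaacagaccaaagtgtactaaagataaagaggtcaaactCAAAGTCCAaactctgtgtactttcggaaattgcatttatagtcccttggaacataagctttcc
Cyp3a11: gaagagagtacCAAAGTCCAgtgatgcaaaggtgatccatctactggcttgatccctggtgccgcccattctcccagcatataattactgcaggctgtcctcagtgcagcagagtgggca
The nuclear receptor core site AGGTCA was in 4 windows (Cyp2c29, Cyp2c70, Cyp3a11 and Cyp3a25, against 14% of all), TATAAA in 4 (12.4%) and TTGCNNAA, a C/EBP type motif, in 2 (9.57%). This core repeated with 1 or with 4 bases between, and the HNF1 palindrome, were in none of the 9 windows and in 0.0335%, 0.0152% and 0.00914% of all. A match is a description of the letters and not a bound site.

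Across the 16 mice Cyp2c54 and Cyp2c55 varied most among the 9 genes. Cyp2c54 ran from 8.90 in the high CR Wy mouse to 11.51 in the high INT mock mouse, a range of 2.61 log2 that was wider than that of 98.6% of the tested genes. Cyp2c55 ran from 4.50 in the low INT mock mouse to 7.26 in the high CR Wy mouse, a range of 2.76 log2 and wider than in 98.9% of them. Its median level of 5.27 lay near the filter on low values (4.32), so this is the spread of a weak signal. The other genes ranged over 0.70 log2 (Cyp3a11, wider than 62.8% of the tested genes) to 1.12 log2 (Cyp2c37, wider than 86.8%). The high CR Wy mouse was thus at once the lowest for Cyp2c54 and the highest for Cyp2c55. Levels of different genes come from different probes and are not compared with each other.

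**Figure D1:**
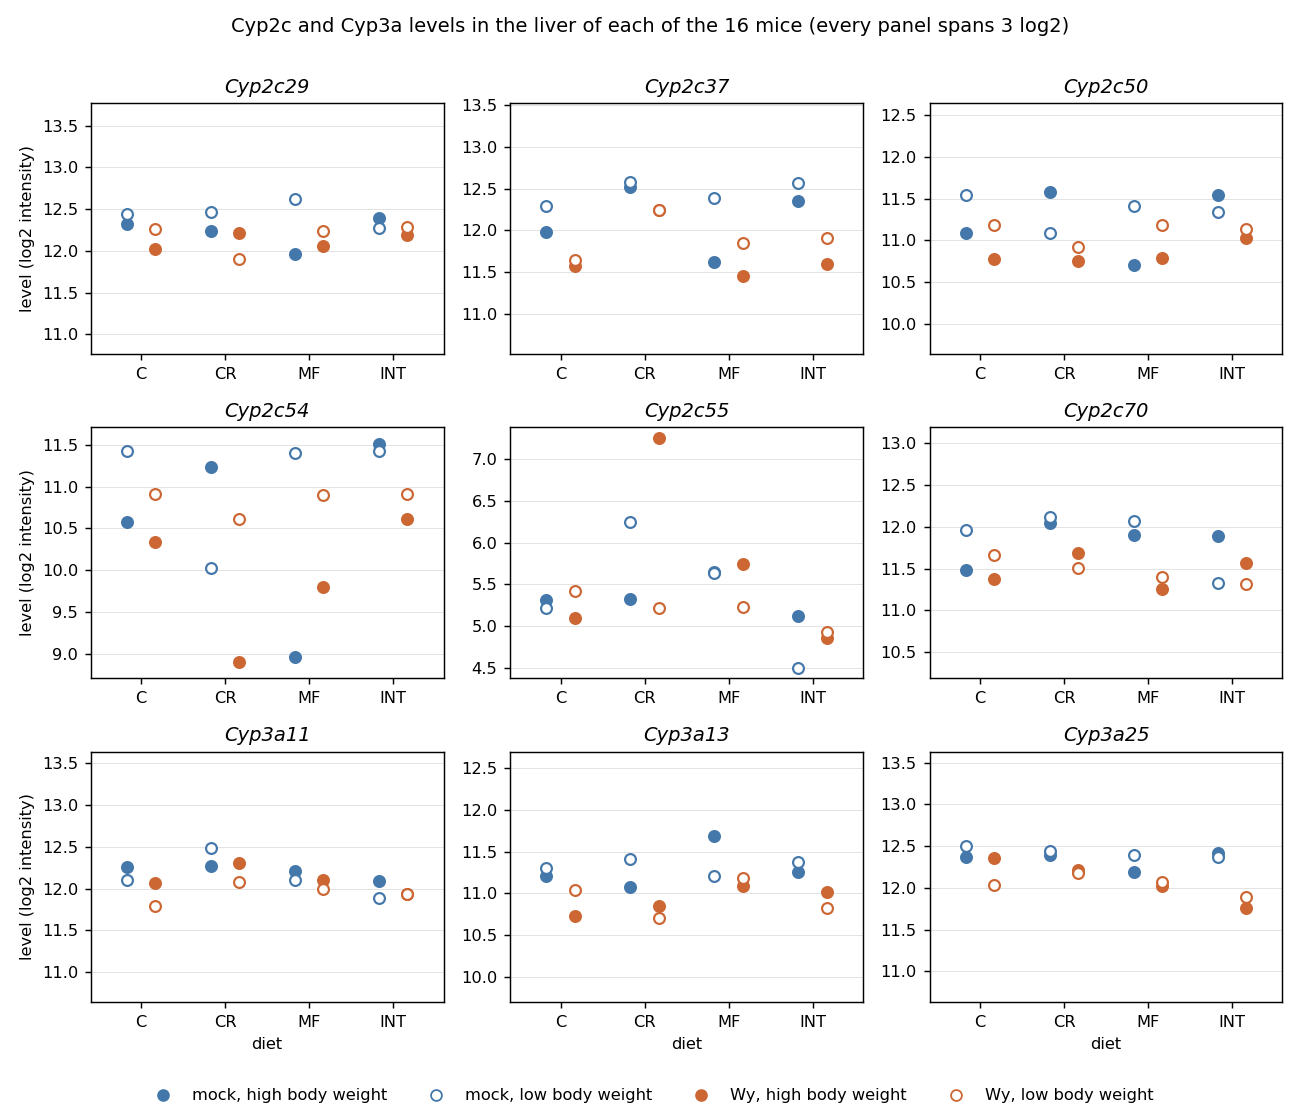
Levels (log2 intensity, y axis, 3 log2 in every panel) of the 9 genes in each of the 16 mice by diet (x axis), with mock in blue, Wy in orange, high body weight filled and low body weight open. Cyp2c54 and Cyp2c55 spread over 2.61 and 2.76 log2, and Cyp2c37 lay between 12.24 and 12.58 in the 4 CR mice.

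The first comparison asks whether the enzymes differed 6 h after Wy. Wy livers had lower levels of 5 of the 9 genes, Cyp2c37, Cyp2c50, Cyp2c70, Cyp3a13 and Cyp3a25, and higher levels of none (adjusted p under 0.05, limma over all tested genes with the pair of equal diet and weight class as a block). Over all 14275 tested genes 28.3% were called, 16% lower and 12.3% higher in Wy, and each fall of the 5 enzymes was between 1.24-fold and 1.39-fold. The median difference of the 9 genes was -0.32 log2, beside -0.01 over all tested genes.

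Cyp2c37, an enzyme that hydroxylates arachidonic acid, changed most among these 5. Its mock levels were lowest at 11.62, in the middle at 12.37 and highest at 12.58, and its Wy levels were 11.46, 11.75 and 12.25 (n = 8 mice each). The groups overlapped, but within pairs Wy was lower in 8 of 8, by between 0.16 and 0.76 log2. The fitted difference was -0.47 ± 0.07 log2 (SE), 1.39-fold lower, with an adjusted p of 0.000411 in limma.

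Cyp2c70, which makes the rodent muricholic acids from other bile acids, and Cyp3a13, a Cyp3a enzyme of liver and intestine, were also lower in 8 of 8 pairs. Cyp2c70 had a lowest, median and highest level of 11.33, 11.93 and 12.12 in mock and of 11.26, 11.46 and 11.69 in Wy mice, so levels above 11.69 occurred in mock livers alone. Its difference was -0.38 ± 0.08 log2 (1.30-fold lower, adjusted p = 0.00386, limma), and the low INT pair differed by only -0.01 log2. Cyp3a13 ran over 11.08, 11.28 and 11.69 in mock and 10.71, 10.93 and 11.18 in Wy mice, with a difference of -0.39 ± 0.07 log2 (1.31-fold lower, adjusted p = 0.00232, limma).

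Cyp3a25, another Cyp3a enzyme of mouse liver, was lower with Wy in 8 of 8 pairs and Cyp2c50, an epoxygenase of arachidonic and linoleic acid, in 7 of 8. Cyp3a25 had 12.19, 12.39 and 12.51 in mock and 11.76, 12.05 and 12.35 in Wy mice, a difference of -0.32 ± 0.07 log2 (1.24-fold lower, adjusted p = 0.00533, limma). Cyp2c50 had 10.70, 11.38 and 11.58 in mock and 10.75, 10.98 and 11.19 in Wy mice, a difference of -0.32 ± 0.08 log2 (1.24-fold lower, adjusted p = 0.0148, limma). The exception for Cyp2c50 was the high MF pair, whose mock mouse had the lowest level of all 16. How many of all tested genes were lower in 8 of 8 pairs was not counted.

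The remaining 4 genes did not pass the test. Cyp3a11, the main drug-metabolising Cyp3a enzyme of mouse liver and the usual reporter of PXR activity, differed by -0.15 ± 0.06 log2 (adjusted p = 0.071, limma, lower in 6 of 8 pairs). Cyp2c29, an arachidonic acid epoxygenase, differed by -0.19 ± 0.07 log2 (adjusted p = 0.0674, limma, lower in 6 of 8 pairs). Both came near the threshold and passed it under some alternatives given in the closing section. Cyp2c54, also an epoxygenase, differed by -0.45 ± 0.27 log2 (adjusted p = 0.263, limma) and its pairs ran from -2.33 in high CR to 0.84 in high MF mice. Cyp2c55, an inducible Cyp2c enzyme known from the intestine, differed by 0.09 ± 0.25 log2 (adjusted p = 0.821, limma), lower in 4 of 8 pairs and 1.93 higher in high CR.

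**Figure D2:**
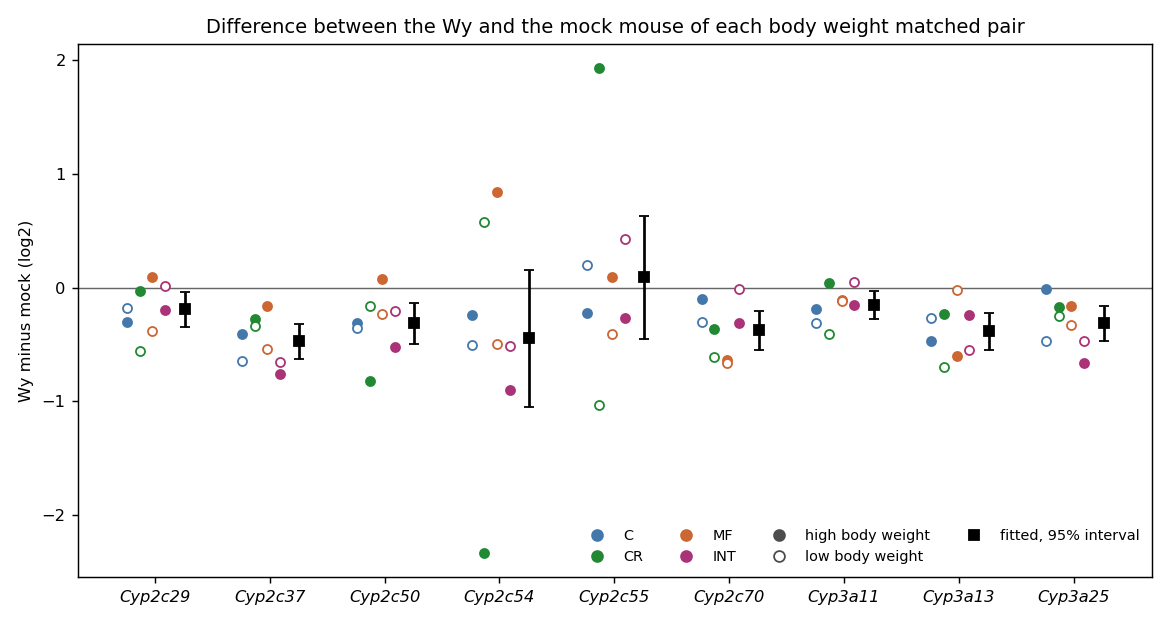
Wy minus mock (log2, y axis) in each of the 8 pairs of equal diet and weight class for the 9 genes (x axis), coloured by diet, filled for high and open for low body weight, with the fitted difference and its 95% interval as black squares. For Cyp2c37, Cyp2c70, Cyp3a13 and Cyp3a25 all 8 pairs lay below 0, while Cyp2c54 ran from -2.33 to 0.84.

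The 5 calls were kept when each mouse was left out in turn, on the 14 arrays of the first code alone, and without the pair as a block. Centring each array on its median turned the share of called genes that were higher with Wy from 43.5% to 53.9% over all genes, and the 5 enzymes were still called lower. By the F test over the 4 diets no tested gene had a Wy effect called as different (0 of 14275 in limma, 669 at an unadjusted p under 0.05), and between CR and C alone 1 tested gene (0.00701%) did, which was none of the 9. Between weight classes no Wy effect was called as different either (0 of 14275 in limma, 673 unadjusted). Among the 9 genes Cyp2c70 alone had an unadjusted p under 0.05 in the F test (adjusted p = 0.997, limma), and with so few pairs a diet only large differences could be found.

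Genes around these enzymes were counted with Wy as well. Over all tested genes 28.3% were called, 12.3% higher and 16% lower. Of 6 tested other Cyp2c and Cyp3a genes, Cyp2c68 (-0.28 ± 0.07 log2) and Cyp2c39 (-0.39 ± 0.10 log2) fell and none rose. Of 15 tested receptors and regulators 2 rose and 8 fell. Nr1i2, which encodes PXR, rose by 0.34 ± 0.08 log2 (adjusted p = 0.00817, limma), and Ppara differed by 0.09 ± 0.07 log2 (adjusted p = 0.394). The aryl hydrocarbon receptor Ahr fell by 1.04 log2, Gadd45b, a stress gene and known CAR coactivator, rose by 2.98 log2, Stat5b, which relays growth hormone signals, fell by 0.45 log2 and the glucocorticoid receptor Nr3c1 fell by 0.33 log2. The cluster of Nr1i3 (CAR) was shared with a neighbouring gene and gives no value.

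Among 20 tested other targets of CAR and PXR 1 rose and 4 fell with Wy, beside 28.3% of all tested genes called. The 4 that fell were the organic anion transporter Slco1a4 (-1.29 ± 0.14 log2), the sulfotransferase Sult1d1 (-0.50 ± 0.06 log2), the flavin monooxygenase Fmo5 (-0.27 ± 0.07 log2) and the glucuronosyltransferase Ugt2b36 (-0.13 ± 0.04 log2). Of 6 genes of microsomal electron transfer only Pgrmc2, a haem-binding partner of P450 enzymes, rose (0.19 ± 0.05 log2) and none fell. Of 9 haem genes, the synthesis enzyme Cpox (0.30 ± 0.09 log2) and the haem-degrading Hmox1 (0.40 ± 0.12 log2) rose, and the synthesis enzymes Ppox (-0.36 ± 0.06 log2) and Fech (-0.18 ± 0.04 log2) fell.

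Markers of hepatocyte zones were called with Wy as well, where 12.3% of all tested genes were called higher and 16% lower. Of 10 pericentral markers 5 fell and none rose, among them the Wnt pathway receptor Lgr5 (-2.00 ± 0.14 log2), the glutamate transporter Slc1a2 (-0.58 ± 0.05 log2), the bile acid synthesis enzyme Cyp7a1 (-2.80 ± 0.38 log2) and glutamine synthetase, Glul (-0.15 ± 0.04 log2). Their summed intensity was 25250 to 30340 in mock and 20580 to 24940 in Wy mice, with no overlap. Of 7 periportal markers 4 fell and none rose, with sums of 36420 to 42910 in mock and 32480 to 36550 in Wy mice. Of 9 hepatocyte markers 1 rose and 1 fell, with sums of 70250 to 76190 and 68570 to 71940. The part of these shifts in the lower Cyp2c and Cyp3a levels was not tested.

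The next comparison asks how diet bears on these enzymes, over 4 mice a diet with treatment and weight class as terms. Cyp2c37 was higher in CR than in C and MF livers, and INT livers had less Cyp3a11 and Cyp2c55 than CR livers. By the limma F test over the 4 diets, 1 of the 9 genes was called, Cyp2c37 (adjusted p = 0.0167), while 9.86% of all tested genes were. Cyp3a11 (adjusted p = 0.0629) and Cyp2c55 (adjusted p = 0.117) did not pass. The call of Cyp2c37 was lost without the high CR mock mouse (adjusted p = 0.0531), without the high CR Wy mouse (0.0626) and without the weight class as a term (0.067).

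Cyp2c37 was at 12.52, 12.58, 12.24 and 12.25 in the high mock, low mock, high Wy and low Wy mice on CR. In the same order it was at 11.98, 12.29, 11.57 and 11.64 on C. On MF it was at 11.62, 12.39, 11.46 and 11.85. On INT it was at 12.36, 12.57, 11.60 and 11.91. Each of the 4 CR mice was above the C and the MF mouse of its own weight class and treatment, and across treatments the levels on CR and C overlapped.

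The difference between CR and C for Cyp2c37 was 0.52 ± 0.12 log2 (SE, 1.44-fold higher, adjusted p = 0.0114, limma), and that between CR and MF was 0.57 ± 0.12 log2 (1.48-fold higher, adjusted p = 0.00677, limma). It was the only one of the 9 genes called in either comparison, where 10.5% (4.54% higher and 5.98% lower in CR) and 12.7% (5.79% higher and 6.87% lower in CR) of all tested genes were called. Within the mock mice alone the CR minus C difference was 0.41 log2 (adjusted p = 0.223) and within the Wy mice alone 0.64 log2 (adjusted p = 0.0924), so the call needed both treatments together.

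The other 8 genes were not called between CR and C. Cyp3a11 differed by 0.23 ± 0.08 log2 (adjusted p = 0.0791, limma), higher in 4 of 4 matched comparisons, and passed the threshold once each array was centred on its median (0.26 log2, adjusted p = 0.0424). Cyp2c55 differed by 0.75 ± 0.33 log2 (adjusted p = 0.167) and Cyp2c54 by -0.62 ± 0.43 log2 (adjusted p = 0.409), each with 1 mouse of 4 against the direction. Both moved with single CR mice, Cyp2c55 to 0.32 log2 without the high CR Wy mouse and to 1.05 log2 without the high CR mock mouse, and Cyp2c54 to -1.09 log2 without the high CR mock mouse and to -0.32 log2 without the low CR mock mouse. Cyp2c70 differed by 0.22 ± 0.15 log2 (adjusted p = 0.396). Cyp2c29, Cyp2c50, Cyp3a13 and Cyp3a25 lay between -0.07 and -0.01 log2. Between CR and MF, Cyp3a11 differed by 0.18 ± 0.08 log2 (adjusted p = 0.14) and Cyp3a13 by -0.28 ± 0.11 log2 (adjusted p = 0.115).

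Between INT and CR, 2 of the 9 genes were called, both lower in INT, where 9.85% of all tested genes were called, 4.28% lower and 5.57% higher. Cyp3a11 was at 12.27, 12.49, 12.31 and 12.08 on CR (high mock, low mock, high Wy, low Wy) and at 12.09, 11.89, 11.94 and 11.94 on INT, so that the highest INT level lay just above the lowest CR level. The difference was -0.32 ± 0.08 log2 (1.25-fold lower, adjusted p = 0.0189, limma) and lower in 4 of 4 matched comparisons. Cyp2c55 was at 5.33, 6.24, 7.26 and 5.21 on CR and at 5.12, 4.50, 4.85 and 4.93 on INT, without overlap. Its difference was -1.16 ± 0.33 log2 (2.23-fold lower, adjusted p = 0.0385, limma), with the INT levels near the filter of 4.32.

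Both calls rested on few mice. On the arrays of the first code alone, which leaves out the 2 heavy INT mice, Cyp3a11 kept its size (-0.32 log2, adjusted p = 0.153) and so did Cyp2c55 (-1.18 log2, adjusted p = 0.214), and neither was called. The difference of Cyp2c55 was -0.73 log2 (adjusted p = 0.069) without the high CR Wy mouse, and its call was lost too without either C mock, the low CR mock or any of the 4 INT mice. Cyp3a11 lost its call without the high CR Wy, low CR mock or low INT mock mouse (adjusted p up to 0.0623).

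The other 7 genes were not called between INT and CR. Cyp2c54 differed by 0.92 ± 0.43 log2 (adjusted p = 0.207, limma), higher in INT in 4 of 4 matched comparisons, and was called when the high CR mock mouse was left out (1.39 log2, adjusted p = 0.0371). Cyp2c37 differed by -0.29 ± 0.12 log2, Cyp2c70 by -0.32 ± 0.15 log2 and Cyp3a25 by -0.20 ± 0.09 log2. Cyp2c29, Cyp2c50 and Cyp3a13 differed by between 0.08 and 0.18 log2. The comparisons INT minus CR and CR minus C share the CR mice.

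**Figure D3:**
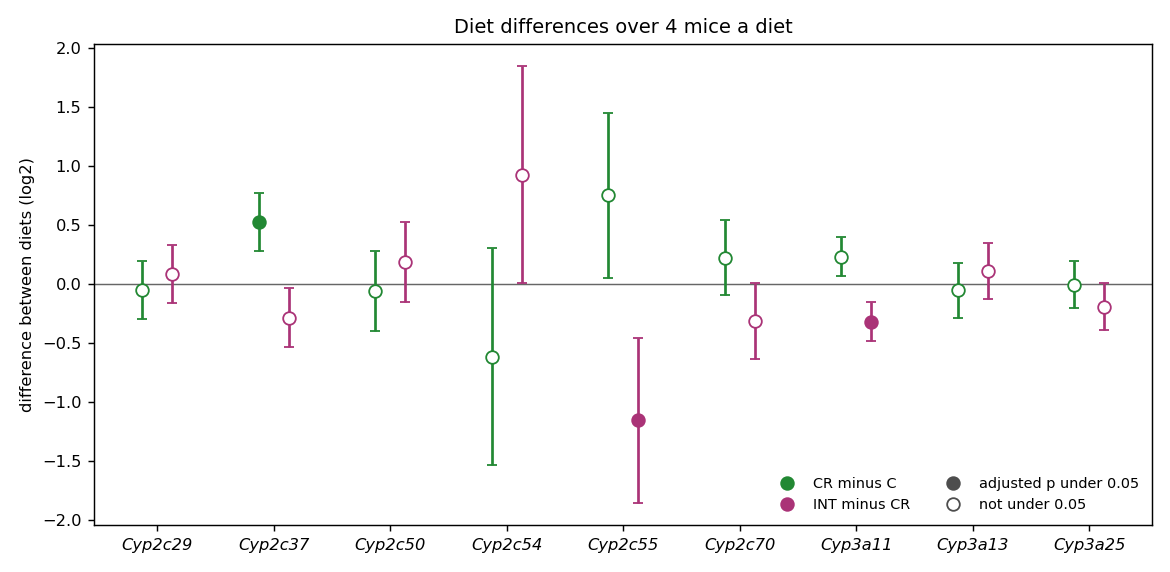
Fitted differences between diets (log2, y axis) for the 9 genes (x axis), CR minus C in green and INT minus CR in purple, with 95% intervals and filled symbols for an adjusted p under 0.05. Cyp2c37 was 0.52 log2 higher in CR than in C, and Cyp2c55 and Cyp3a11 were 1.16 and 0.32 log2 lower in INT than in CR.

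Markers of other cells and of hepatocyte zones were called between diets too. Over all tested genes 10.5% were called in CR against C and 9.85% in INT against CR. No Kupffer cell and macrophage, endothelial or cholangiocyte marker was called in either comparison. Of 8 stellate cell and fibroblast markers 1, and of 5 lymphocyte markers 1, fell in CR against C. In INT against CR 1 lymphocyte marker rose. Of 7 periportal markers 2 rose and 1 fell in CR against C, and 1 rose and 4 fell in INT against CR, with sums of 35650 to 42910 in CR, 32480 to 40170 in C and 32740 to 41690 in INT mice. Of 10 pericentral markers 2 fell in CR against C and none was called in INT against CR. The sum of the adipocyte list was 4789 to 7603 in CR, below 8012 to 8895 in C and 8221 to 8896 in INT mice without overlap. The 1 of its 3 tested genes that was called, lower in CR than in C and higher in INT than in CR, was Car3, a carbonic anhydrase that hepatocytes express as well. The sum of the intestinal list, which bears on Cyp2c55, was 1335 to 2596 in CR, 2273 to 3137 in C and 2238 to 3038 in INT mice. Of its 4 tested genes 1, the fatty acid binding protein Fabp2, was called, lower in CR than in C and higher in INT than in CR. The median difference of the 4 genes had the other sign, 0.17 log2 for CR minus C and -0.17 log2 for INT minus CR. The list thus did not move in 1 direction. The part of these shifts in the differences of Cyp2c37, Cyp2c55 and Cyp3a11 was not tested.

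Between MF and C, INT and C, and INT and MF none of the 9 genes was called by limma, and over all tested genes 0, 1 (0.00701%) and 0 were (628, 1405 and 1629 at an unadjusted p under 0.05). At an unadjusted p under 0.05 stood none of the 9 for MF minus C, Cyp3a25 for INT minus C, and Cyp2c37 and Cyp2c55 for INT minus MF.

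Other genes of the same subfamilies were called by diet too, beside 10.5% of all tested genes for CR minus C and 9.85% for INT minus CR. Of 6 tested other Cyp2c and Cyp3a genes 4 rose in CR against C, namely Cyp2c39 (1.17 ± 0.14 log2), Cyp2c68 (0.98 ± 0.11 log2), Cyp2c38 (0.98 ± 0.14 log2) and Cyp3a44 (0.39 ± 0.10 log2). The same 4 fell in INT against CR, by 1.83, 0.77, 1.19 and 0.39 log2, again over shared CR mice. Of 20 tested other CAR and PXR targets, 2 rose in CR against C, Slco1a4 (1.07 ± 0.20 log2) and the export pump Abcb1a (0.83 ± 0.21 log2), and 2 fell, the aldehyde dehydrogenase Aldh1a1 (-0.58 ± 0.08 log2) and the export pump Abcc3 (-0.61 ± 0.11 log2). In INT against CR 1 of the 20 rose and 8 fell.

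Of the 15 tested regulators 2 were called between CR and C, beside 10.5% of all tested genes, and 2 between INT and CR, beside 9.85%. The bile acid receptor Nr1h4 (-0.41 ± 0.07 log2) fell and the repressor Cux2 (0.82 ± 0.23 log2), a gene of higher expression in female liver, rose in CR against C. In INT against CR, Nr1h4 rose by 0.39 log2 and Cux2 fell by 0.79 log2. Nr1i2 differed by -0.10 ± 0.12 log2 and Ppara by -0.22 ± 0.10 log2 between CR and C, neither called. The share of called genes that were higher went from 43.2% to 57.1% for CR minus C, from 56.5% to 41.9% for INT minus CR and from 45.7% to 56.2% for CR minus MF when each array was centred on its median.

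The last comparison sets heavy against light mice of the same diet and treatment. In C and MF, the diets where the study describes wide differences in weight, heavy mice had lower Cyp2c50 and Cyp2c37 than light mice. These 2 of the 9 genes were called, both lower in heavy mice, while 7.39% of all tested genes were called, 2.72% lower and 4.67% higher. The median difference of the 9 genes was -0.27 log2, beside -0.00386 over all tested genes.

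Cyp2c50 was at 11.09, 10.78, 10.70 and 10.78 in the heavy mice (C mock, C Wy, MF mock, MF Wy) and at 11.55, 11.19, 11.41 and 11.18 in the light mice, without overlap. The difference was -0.49 ± 0.12 log2 (SE, adjusted p = 0.0306, limma). Cyp2c37 was at 11.98, 11.57, 11.62 and 11.46 in the heavy and at 12.29, 11.64, 12.39 and 11.85 in the light mice, lower in the heavier mouse in 4 of 4 although the groups overlapped. The difference was -0.38 ± 0.10 log2 (adjusted p = 0.0392, limma).

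Cyp2c54 was at 10.57, 10.33, 8.96 and 9.80 in the heavy and at 11.42, 10.92, 11.40 and 10.90 in the light mice, again without overlap. It had the widest difference of the 9, -1.24 ± 0.39 log2, and missed the threshold (adjusted p = 0.0766, limma). Cyp2c29 (-0.30 ± 0.10 log2, adjusted p = 0.0962) and Cyp2c70 (-0.27 ± 0.11 log2, adjusted p = 0.172) were lower in the heavier mouse in 4 of 4 as well and were not called. How many of all tested genes went 1 way in 4 of 4, or did not overlap, was not counted. Cyp3a11 differed by 0.16 ± 0.08 log2 (adjusted p = 0.259), higher in the heavier mouse in 4 of 4, and Cyp2c55, Cyp3a13 and Cyp3a25 differed by between -0.02 and 0.08 log2.

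The calls for Cyp2c50 and Cyp2c37 were not stable. Each was lost when any 1 of the C and MF mice but the high MF Wy mouse was left out (adjusted p up to 0.123 and 0.158), and that of Cyp2c37 was lost with diet by treatment as a block (adjusted p = 0.065). On the first array code, which holds all C and MF mice, both were called (adjusted p = 0.0336 for Cyp2c50 and 0.0308 for Cyp2c37, limma). Cyp2c54 gained a call without the high CR mock, high CR Wy or high MF Wy mouse.

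In CR and INT the same contrast gave no called gene at all in limma (0 of 14275, 679 at an unadjusted p under 0.05). Cyp2c50 differed there by 0.10 ± 0.12 log2, Cyp2c37 by -0.15 ± 0.10, Cyp2c54 by -0.18 ± 0.39 and Cyp2c70 by 0.23 ± 0.11 log2, none of them called. Whether the weight difference was another in C and MF than in CR and INT was tested directly, and 0.855% of all tested genes passed but none of the 9. The difference of the differences was -0.60 ± 0.17 log2 for Cyp2c50 (adjusted p = 0.125, limma), -0.50 ± 0.16 for Cyp2c70 (adjusted p = 0.167), -1.07 ± 0.55 for Cyp2c54 (adjusted p = 0.426), -0.33 ± 0.14 for Cyp2c29 (adjusted p = 0.332) and -0.23 ± 0.14 for Cyp2c37 (adjusted p = 0.497). Cyp2c50 passed once the high CR Wy mouse was left out (-0.74 log2, adjusted p = 0.0303).

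**Figure D4:**
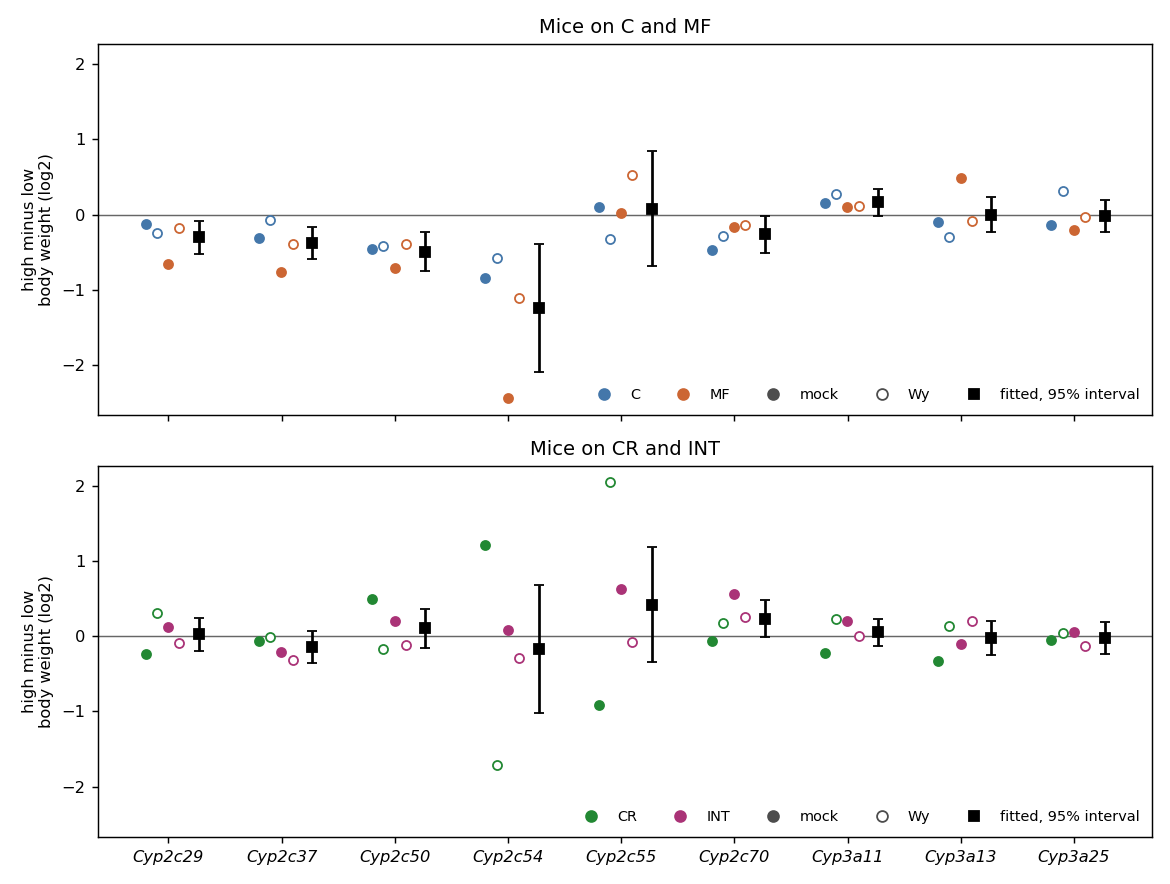
High minus low body weight (log2, y axis) for the 9 genes (x axis) within each diet and treatment, for C and MF above and CR and INT below, with mock filled, Wy open and the fitted difference with its 95% interval as black squares. In C and MF all 4 comparisons of Cyp2c29, Cyp2c37, Cyp2c50, Cyp2c54 and Cyp2c70 lay below 0, and in CR and INT those of Cyp2c37 did, from -0.31 to -0.01. Only Cyp2c37 and Cyp2c50 were called in C and MF, and no gene was in CR and INT.

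Other genes were called between heavy and light C and MF mice too, beside 4.67% higher and 2.72% lower over all tested genes. Of 6 tested other Cyp2c and Cyp3a genes Cyp2c23 (-0.58 ± 0.10 log2) and Cyp2c67 (-0.37 ± 0.08 log2) fell and none rose. Of 20 tested other CAR and PXR targets 5 rose, among them Abcc3 (0.48 ± 0.10 log2) and Aldh1a7 (0.37 ± 0.08 log2), and 2 fell, the carboxylesterase Ces2a (-0.79 ± 0.17 log2) and Cyp1a2 (-0.46 ± 0.10 log2). None of the 15 regulators was called, Nr1i2 at 0.12 ± 0.11 log2 and Ppara at -0.04 ± 0.11 log2 included.

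Markers of other liver cells and of hepatocyte zones were called in this comparison as well, where 7.39% of all tested genes were called. Of 10 Kupffer cell and macrophage markers 2 rose and 1 fell in heavy C and MF mice, of 8 stellate cell and fibroblast markers 2 rose, and of 8 endothelial markers 2 rose. Summed intensities were 5836 to 8558 in heavy against 5090 to 5902 in light mice for macrophages, 7553 to 8107 against 6719 to 7327 for stellate cells, and 6665 to 7521 against 6379 to 6597 for endothelium. The sum of 9 hepatocyte markers was 68570 to 71510 in heavy and 71710 to 73130 in light mice. None of the 9 hepatocyte markers was called. Of 10 pericentral markers 1 rose and 1 fell, with a median difference of -0.20 log2 and sums of 23400 to 26790 in heavy and 24760 to 30320 in light mice. Of 7 periportal markers 1 fell and none rose, with a median of -0.14 log2 and sums of 32480 to 39750 and 33810 to 40170. The part of these shifts in the lower Cyp2c levels was not tested.

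Across the 16 mice Cyp2c50 and Cyp2c54, close paralogs, went up and down together. Their log2 levels correlated with r = 0.875 and rho = 0.918 (permutation test, p = 1e-05, the smallest that 100000 permutations can give, adjusted p = 0.00036 over the 36 pairs of the 9 genes). The permutations moved mice freely across diets, treatments and weight classes, so this p also holds differences between those groups. Without the 2 mice farthest out in Cyp2c50 r was 0.874, and without those in Cyp2c54 it was 0.879. Within the 8 mock mice r was 0.945, within the 8 Wy mice 0.82 and on the first array code 0.867. Whether probes of either gene also bind transcripts of the other was not tested.

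**Figure D5:**
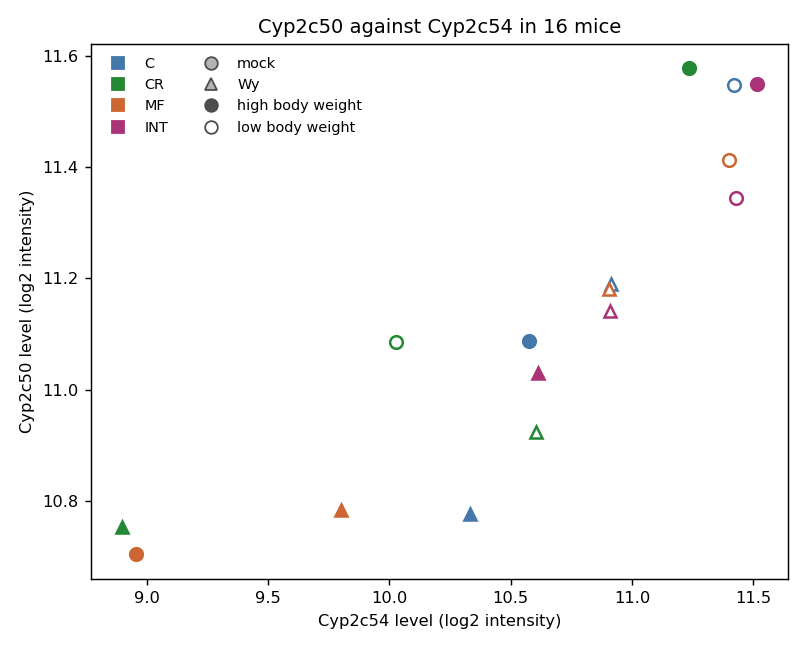
Cyp2c50 level (log2 intensity, y axis) against Cyp2c54 level (log2 intensity, x axis) in the 16 mice, coloured by diet, circles for mock, triangles for Wy, filled for high and open for low body weight. The high CR Wy and high MF mock mice sit lowest in Cyp2c54, at 8.90 and 8.96.

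By r 5 of the 36 pairs passed, 4 of them positive. Cyp2c54 and Cyp2c55 ran opposite to each other (r = -0.699, permutation test adjusted p = 0.0383, and rho = -0.553, adjusted p = 0.0775). Without the 2 mice farthest out in Cyp2c54 r was -0.501, without those in Cyp2c55 it was -0.468, and it was -0.579 within mock mice, -0.897 within Wy mice and -0.715 on the first array code. Mice of 1 diet or treatment share it, and a correlation over all 16 holds those differences too. Cyp2c55 and Cyp3a11 gave r = 0.657, which was 0.486 without the 2 mice farthest out in Cyp2c55 and 0.72 without those in Cyp3a11. Cyp2c29 and Cyp2c50 gave 0.702 (0.567 within mock and 0.62 within Wy mice), and Cyp2c37 and Cyp3a25 gave 0.679 (0.714 within mock and 0.288 within Wy mice).

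The tested genes most like each enzyme over the 16 mice were mostly not P450 genes. For Cyp2c37 they were Impa1 (r = 0.971), Car8 (0.958) and Tmem88b (0.956), the closest for any of the 9. For Cyp3a11 the closest was another Cyp3a gene, Cyp3a44 (0.910), and for Cyp2c54 a P450 of another family, Cyp4f14 (0.929). For Cyp2c50 it was Serpina1d (0.922), for Cyp3a13 Chrm3 (0.936), for Cyp3a25 Hpgd (0.926), for Cyp2c70 Dcps (0.893), for Cyp2c29 Tigd2 (0.890) and for Cyp2c55 Rps2 (0.879). These values describe likeness over 16 arrays that share diets and treatments, and carry no test.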

How the data were processed

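Whole liver RNA of 16 mice was hybridised to Affymetrix Mouse Gene 1.1 ST arrays, 1 per mouse. The deposited values are log2 intensities that the authors made with robust multi-array averaging (RMA, version not given in the sources used here), which corrects background, equalises the arrays and summarises probes per transcript cluster. Values ran from 1.84 to 13.7 and correlations between arrays over all 35556 clusters from 0.982 to 0.994. No array was a copy of another (root-mean-square difference over tested genes at least 0.202 log2). Precision is set by how many arrays there are.

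Of 35556 clusters 21218 matched exactly 1 gene. The cluster with the highest mean was kept per gene, and genes above an intensity of 20 on at least 5 arrays were tested (14275 of 18820). Tests used limma 3.58.1 in R 4.3.3 with Benjamini-Hochberg adjustment over all tested genes, and a call is an adjusted p under 0.05. Wy was fitted with the pair of diet and body weight class as a block, as the series' design text states that both treatments went to mice matched on weight within a diet. Which mice were matched is not given, so the pair is a shared weight class. Per diet, the high minus low difference of the mock mice was correlated with that of the Wy mice across tested genes. This gave 0.531 in C and 0.564 in MF, but only 0.0839 in INT and -0.169 in CR. Diets were compared with treatment and weight class as terms, and weight classes with diet by weight class and treatment. Each mouse is a separate animal.

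Members and lists were chosen with earlier results of these data known. All listed enzymes are named in every comparison described, whatever their p, with up to 4 called genes of smallest p per list, Nr1i2 and Ppara, and up to 3 genes of highest correlation per enzyme. Lists were described by counts. Alternatives were array centring, no low filter, mean over clusters, trend and robust moderation, other blocks, 1 array code, 1 treatment, and leaving out each mouse. The procedure was tested on simulated data with the same likeness within pairs in every diet, which the mice did not show. No result here rests on that run. Promoters were aligned with Biopython 1.88.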

Additional observations from a re-analysis of the deposited data

How the results depend on the processing

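Over 52 results of single enzymes and 1192 alternatives, 1102 kept direction and side of the threshold, 42 lost a call, 22 gained one and 26 turned direction, all of these 26 for values that were not called. The 5 Wy calls held throughout, with 5 to 6 enzymes called when each mouse was left out. Wy calls were gained by Cyp2c29 and Cyp3a11 under trend and robust moderation (adjusted p = 0.0446 and 0.0347, limma), by Cyp2c29 with a random replicate block (0.0463) and without the high MF pair, and by Cyp3a11 without the high CR or low INT pair. With no replicate block for the pair, 5 enzymes and 3888 genes were called with Wy, against 5 and 4038.

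The number of enzymes called by diet went from 1 to 2 when arrays were centred or moderation was trended and robust, and to 0 without the weight class, in mock mice alone and in Wy mice alone (179 and 95 genes called). For CR minus C it went from 1 to 2 when centred or trended and to 0 in mock mice (297 genes) and Wy mice (160 genes). For INT minus CR it went from 2 to 1 when trended, to 0 on the first array code (378 genes), in mock mice (490) and in Wy mice (175). For CR minus MF it went from 1 to 0 in mock mice (238 genes) and Wy mice (315). INT minus C gave 1 gene, 6 when centred, 5 when trended and 0 on the first array code, without weight class, in mock mice and in Wy mice. With diet by treatment as a replicate block, the weight contrast in C and MF gave 674 genes and 1 enzyme, and its difference from CR and INT 8 genes. The Wy by diet test gave 1 gene on the first array code. On that code the weight contrast in C and MF called 1144 genes and 2 enzymes, while the one in CR and INT and the difference could not be fitted for lack of heavy INT mice. Causes were not tested.

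Direction turned for CR minus C of Cyp3a25 when centred (0.027) and in Wy mice (0.0045), of Cyp2c50 in mock mice (0.014), and for INT minus CR of Cyp2c29 on the first array code (-0.020) and in mock mice (-0.020).

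When each mouse was left out in turn, the Wy comparison called 3391 to 3971 genes and gave Cyp2c55 -0.17 to 0.25 log2. The diet test called 756 to 1788 genes and 0 to 2 enzymes, CR minus C 884 to 1601 genes and 1 to 2 enzymes, INT minus CR 865 to 1459 genes and 0 to 3 enzymes, CR minus MF 1057 to 1975 genes and 1 to 2 enzymes, INT minus C 1 to 16 genes, INT minus MF 0 to 1 gene and Wy by diet 0 to 2 genes. The weight contrast called 182 to 1144 genes and 0 to 3 enzymes in C and MF and 0 to 5 genes in CR and INT, and their difference 2 to 279 genes and 0 to 1 enzyme. For CR minus C the range was -0.13 to 0.051 for Cyp2c29, -0.24 to 0.037 for Cyp2c50, -0.14 to 0.0029 for Cyp3a13 and -0.062 to 0.072 for Cyp3a25, and for INT minus CR -0.027 to 0.15 for Cyp2c29. For weight in C and MF it was -0.062 to 0.22 for Cyp2c55, -0.11 to 0.10 for Cyp3a13 and -0.10 to 0.070 for Cyp3a25, and in CR and INT -0.041 to 0.25 for Cyp2c50 and -0.72 to 0.36 for Cyp2c54.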
